A study of Mus musculus with 17 samples.

Results

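Long contacts that H3K27ac HiChIP recorded in RA-day 4 EBs are described here: autosomal loops whose anchor midpoints lay 1 Mb or more apart and which carried 4 or more read pairs summed over the 17 libraries. The largest span listed was 2000861.5 bp, so longer contacts are not covered. There were 653 such members among 1211657 loops (0.0539%), and 162072 autosomal loops spanned 1 Mb or more at any count. The span and the summed read pairs chose the members, so neither is a finding. R1 mouse embryonic stem cells were formed into EBs by hanging drop and given 0.5 µM RA for 4 days, and every library of both groups carries this treatment, with no untreated group. The 12 bulk libraries come from the unsorted mixture. The 5 libraries labelled cluster2 stand for the subpopulation that the study sorted as EpCAM/CD38 double positive cells. The study's methods give 5 sorting experiments, and whether each library is one of them is not stated. Sorting and cell type cannot be told apart, the unsorted mixture holds such cells too, and nothing in the labels ties a library to a separate culture, so the p-values below measure the spread between these libraries, which may be technical.

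H3K27ac marks active enhancers and promoters. HiChIP ligates DNA ends that lie close together in the nucleus and keeps those bound by an antibody, so a loop here is a pair of marked regions (anchors) joined by read pairs. Most contacts between an enhancer and its promoter fall inside a single topological domain, and contacts across longer distances are known at the promoters of developmental transcription factors, which often lie in gene deserts, and between clusters of highly transcribed genes. CTCF halts cohesin where its motifs point towards each other. RA acts through receptor dimers that bind direct repeats such as the DR5 element, and in culture it directs stem cells towards neural fates and, in part, endoderm.

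Sequences of mm9 are shown first for the members on which motifs or shared bases bear. At 4 members both anchors held a match to the CTCF core motif, and in 3 of them the matches faced each other (plus strand on the left, minus strand on the right). They are printed 5′ to 3′ on the strand of the match, which is in capitals. The first lay at chr13:36111271-36111312 in an intron of Lyrm4 and at chr13:37404595-37404636 between genes, and the second at chr14:77541584-77541625 between genes and at chr14:78687879-78687920 in an intron of Tnfsf11. The third joined chr2:170738233-170738274 and chr2:172032645-172032686, both between genes. The members had 8, 4 and 6 read pairs, all in bulk libraries.
Chromosome 13 left: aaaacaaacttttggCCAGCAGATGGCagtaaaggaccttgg
Chromosome 13 right: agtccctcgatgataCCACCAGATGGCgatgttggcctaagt
Chromosome 14 left: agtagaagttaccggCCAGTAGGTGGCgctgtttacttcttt
Chromosome 14 right: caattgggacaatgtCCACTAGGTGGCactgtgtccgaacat
Chromosome 2 left: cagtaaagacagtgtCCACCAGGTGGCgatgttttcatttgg
Chromosome 2 right: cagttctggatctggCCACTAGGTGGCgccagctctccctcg

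Nr2f1, an orphan nuclear receptor gene of the developing nervous system, was joined to 2 neighbouring far anchors, and each held a match to the DR5 element, in capitals. The anchor of the member with 21 read pairs held it at chr13:79391774-79391820 (minus strand) and that of the member with 9 read pairs at chr13:79394553-79394599 (plus strand), both between genes. Another far anchor of Nr2f1, chr13:79484135-79486759 (member with 7 read pairs), held no such match. Such a match was present in 1.92% of the 937 member anchors and in 1.28% of all autosomal anchors, whose median widths were 3710 and 2329 bp. Among anchors of 3 to 5 kb the shares were 2.22% and 1.83%.
Far anchor, 21 read pairs: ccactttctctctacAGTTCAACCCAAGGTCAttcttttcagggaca
Far anchor, 9 read pairs: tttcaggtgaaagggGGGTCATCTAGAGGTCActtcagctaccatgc

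Pou3f2, a neural POU factor gene, shows a contrast between the ends of a bulk member, a promoter rich in CpG joined to an anchor poor in it. The 150 bases before its annotated start (chr4:22415481-22415630, minus strand) held 15 CpG, in capitals, and the middle 150 bases of the anchor 1.5 Mb away (chr4:23911668-23911817, plus strand, between genes) held 1.
Pou3f2 upstream: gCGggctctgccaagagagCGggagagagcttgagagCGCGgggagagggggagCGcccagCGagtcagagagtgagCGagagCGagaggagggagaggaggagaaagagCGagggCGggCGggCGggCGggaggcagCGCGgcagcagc
Pou3f2 far anchor: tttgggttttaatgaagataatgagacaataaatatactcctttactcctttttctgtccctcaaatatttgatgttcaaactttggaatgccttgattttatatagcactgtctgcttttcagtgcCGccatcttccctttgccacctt

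Copies of the same sequence at both ends were looked for, because reads from near-identical copies can be placed at the wrong one. A 32-base word was shared by both anchors in 83 members (12.7%), against 11% of the loops of this span with 3 read pairs. Among the members of chromosome 13, the largest percentage of shared words (35.3%) was found in a member that joined Hist1h2ah and Hist1h2ad (3 bulk and 1 cluster2 read pairs). Its anchors had a stretch of 360 bases in common, at chr13:22127038-22127397 and, on the opposite strand, at chr13:23666364-23666723, inside an exon of each histone gene. The first 120 bases (chr13:22127038-22127157, plus strand) are identical in both copies. Only 5 members shared 10% or more of their words, 4 of them in the histone gene region and 1 on chromosome 4, and the positions of these 5 are uncertain.
Histone stretch: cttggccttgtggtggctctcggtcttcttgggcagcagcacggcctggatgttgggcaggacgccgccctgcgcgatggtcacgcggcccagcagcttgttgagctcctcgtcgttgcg

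The libraries held few read pairs for loops of this kind. Bulk libraries listed 65148 to 241068 read pairs and cluster2 libraries 50508 to 118179, in all 1616066 and 409248, so cluster2 gave 20.2% of the total. The minimum of 4 read pairs set the membership of most loops: 390 members had exactly 4, and 511 would fall under 4 without their deepest library. Members were seen in 2, 3 or 4 libraries in 84, 220 and 232 cases and in 5 or more in 114. Loops of this span with 3 read pairs numbered 1448. At the span limit, the nearest members spanned 1000202, 1000887 and 1001276 bp with 4 read pairs each. The nearest loops left out spanned 999699.5, 998327.5 and 997000.5 bp with 8, 5 and 6 read pairs.

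Both groups differed in the anchors that their files use, and bulk replicates 1 to 4 stood apart from the other bulk libraries. Of 216081 joined anchors 15074 took part in loops of both groups (shared anchors), 200999 in bulk loops alone and 8 in cluster2 loops alone. A bulk loop that left the shared anchors thus had no cluster2 read pairs by definition. Which anchors were open to the loop calling of each group is not stated. A missing anchor and a missing signal in cluster2 therefore cannot be told apart. Shared anchors carried 8.40% to 16.0% of a bulk library's read pairs and at least 99.99% of a cluster2 library's. Members took 0.112% to 0.131% of the read pairs in bulk replicates 1 to 4 and 0.0560% to 0.0876% in bulk replicates 5 to 12. They took 0.422% ± 0.030 (SD, n = 5) in cluster2. Within the shared anchors the values were 0.481% ± 0.031 (SD, n = 4) in bulk replicates 1 to 4, 0.406% ± 0.088 (SD, n = 8) in bulk replicates 5 to 12 and 0.422% ± 0.030 (SD, n = 5) in cluster2, and these ranges overlapped.

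Marker genes passed the check of the labels in part. Reads at Gata4 and Foxa2, endoderm regulators, were higher in cluster2 (log2 fold changes of 1.73 ± 0.24 and 1.51 ± 0.26, SE; edgeR adjusted p 2.1e-07 and 5.5e-06), and those at Pax6, Rfx4, Lhx1 and Neurod1, neural regulators, were lower (-3.17, -3.44, -3.36 and -4.60). Epcam had 7.91 ± 6.79 CPM (SD, n = 12) in bulk and 60.6 ± 41.5 (SD, n = 5) in cluster2, and Cd38 22.1 ± 19.3 and 116 ± 59.2. These 2 genes of the sort did not pass the test (edgeR adjusted p 0.11 and 0.19), though both did with library size alone (edgeR adjusted p 2.9e-05 and 5.6e-06). Sox17 and Gata6, further endoderm regulators, had log2 fold changes of -0.57 and 0.02 without passing, and 1.18 and 1.76 with library size alone (edgeR adjusted p 0.0496 and 0.00106). Single bulk libraries were high for each: Sox17 had 114 CPM in bulk replicate 8 (bulk median 12.3) and Gata6 116 in bulk replicate 1 (bulk median 18.1). On shared anchors Sox17 turned to 3.97 and Cd38 was 1.74, both past the threshold (edgeR adjusted p 0.0008 and 0.0097), and Epcam and Gata6 had 0.23 and 1.08 without passing. Library size alone moved the median log2 fold change of all genes from -0.52 to 1.21, and shared anchors moved it to 0.30, so values below are to be read against these medians. Fewer cells of a type and less signal per cell cannot be told apart in such samples.

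The members fell into 3 kinds by the libraries that showed them. Read pairs came from bulk alone in 162 members, from cluster2 alone in 165 and from both in 326. The first 2 kinds are called bulk members and cluster2 members below. Bulk gave 1516 read pairs and cluster2 1710, which put the cluster2 share at 53.0%, against 20.1% over all autosomal loops. The share was 45.6% over loops under 1 Mb with 4 or more read pairs and 13.2% over loops of 1 Mb or more at any count. On the shared anchors, where 530 members lay, the share was 66.2%, against 67.3% over all autosomal loops with such anchors. The other 123 members, by construction, had bulk read pairs only. Among the 162 bulk members 39 lay on shared anchors.

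Promoters differed between these kinds, which were formed from the counts. A protein-coding start site (TSS) lay within 5 kb of both anchors in 347 members, of 1 anchor in 208 and of none in 98, and the cluster2 share of read pairs was 69.9%, 44.8% and 18.8%. Of these members 339, 156 and 35 lay on shared anchors. Promoters lay at both anchors in 53.1% of members, against 42.9% of loops under 1 Mb with 4 or more read pairs. On shared anchors these shares were 64.0% and 66.7%, and those with promoters at none were 6.60% and 6.97%. Of the bulk members 16 had promoters at both anchors and 74 at none. Of the cluster2 members 114 had promoters at both and 10 at none, and of those seen in both groups 217 and 14. Among the 39 bulk members on shared anchors 8 had promoters at both and 11 at none.

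**Figure D1:**
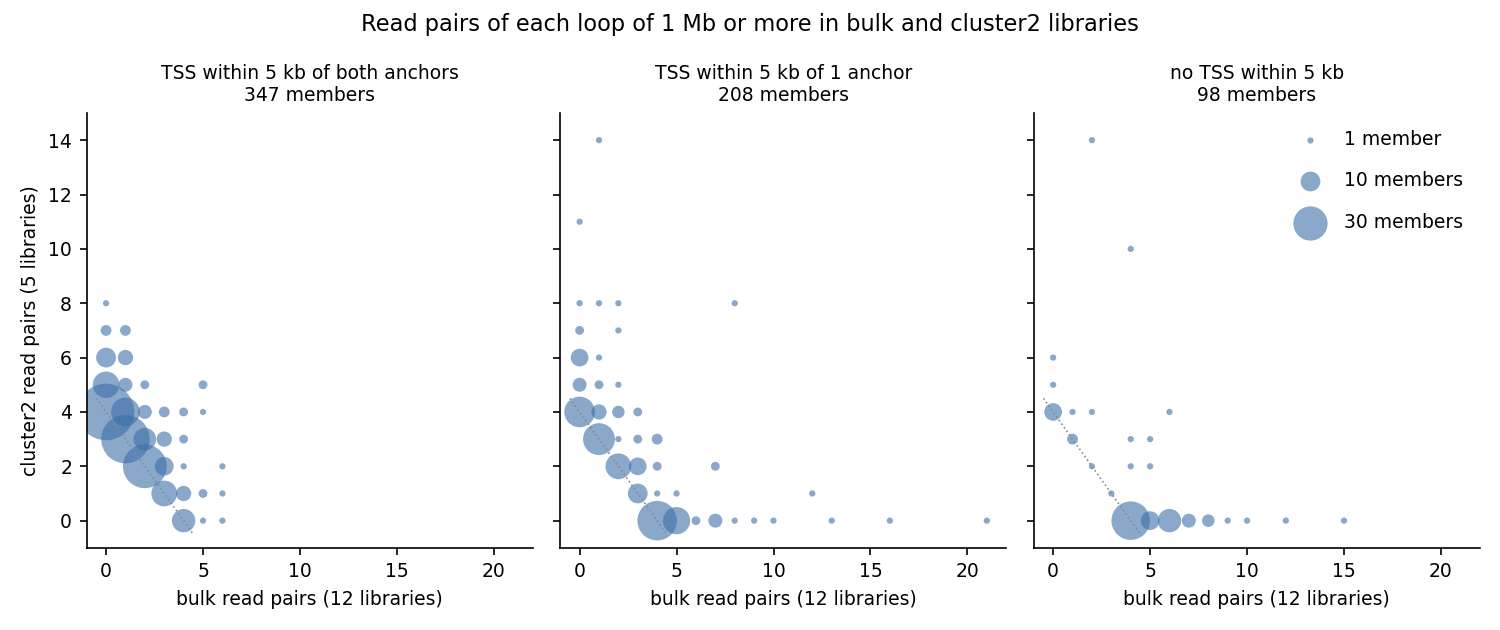
Read pairs of each of the 653 members summed over the 12 bulk libraries (horizontal axis) and the 5 cluster2 libraries (vertical axis), in 3 panels by the number of anchors with a TSS within 5 kb; the area of a point gives the number of members, and the dotted line marks the minimum of 4 read pairs. The 347 members with promoters at both anchors lie towards cluster2, and the 98 without a promoter lie mostly on the axis of 0 cluster2 read pairs.

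The stretch between the anchors differed in the same way. A median of 1.53 protein-coding TSS per Mb lay between the anchors of the bulk members (quartiles 0.791 and 4.4), of 18.2 in members of both groups and of 19 in the cluster2 members (quartiles 8.41 and 29.8). The 39 bulk members on shared anchors had a median of 1.75. These medians are given without a test, because the kinds were formed from the counts. Over all loops of 1 Mb or more, weighted by read pairs, the mean was 9.88 ± 0.48 TSS per Mb in bulk (SD, n = 12) and 24.2 ± 0.34 in cluster2 (SD, n = 5). On the shared anchors it was 22.3 ± 0.61 and 24.2 ± 0.34. The highest bulk library (10.6 over all anchors, 23.3 on shared anchors) lay below the lowest cluster2 library (23.8) in both.

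**Figure D2:**
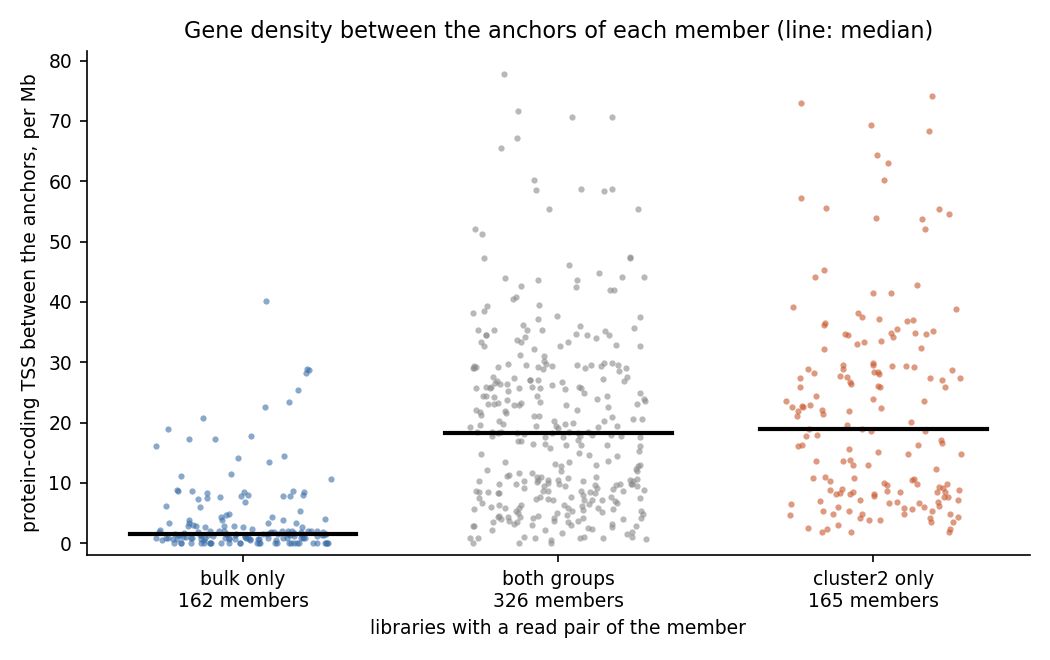
Protein-coding TSS per Mb between the anchors (vertical axis) for each member, grouped by the libraries that showed it; each point is a member and the line is the median. Bulk members sit near the bottom with a median of 1.53, and members of both groups and of cluster2 alone spread upwards around 18.2 and 19.

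The share of contacts that ran this far was compared over all loops, whatever their count, which leaves the minimum of 4 read pairs out of the test. Loops of 1 Mb or more took 8.33% to 10.6% of the autosomal read pairs of a bulk library (median 9.57%) and 5.72%, 5.65%, 5.57%, 5.63% and 5.84% in cluster2 replicates 1 to 5. The groups did not overlap, with means of 9.64% ± 0.69 (SD, n = 12) and 5.68% ± 0.10 (SD, n = 5). An exact two-sided permutation test over 6188 groupings of the libraries gave p = 0.000162, the smallest it can give. The direction turned on the shared anchors, with 5.11% ± 0.24 in bulk and 5.68% ± 0.10 in cluster2 (exact permutation p = 0.000646), where bulk reached 5.67% and overlapped cluster2. Against bulk replicates 1 to 4 and 5 to 12 separately the difference was -3.33 and -4.27 percentage points (exact permutation p = 0.0079 and 0.00078). The median span of these read pairs was 1376830 bp in bulk and 1379030 bp in cluster2, a difference of 2206 bp (exact permutation p = 0.46), which was 5405 bp without cluster2 replicate 4 (exact permutation p = 0.045). Counted as loops and not as read pairs, the share was 10.4% ± 0.47 in bulk and 9.57% ± 1.14 in cluster2 (exact permutation p = 0.045), and the groups overlapped. This difference of -0.81 percentage points depended on single libraries. It no longer passed without any 1 of bulk replicates 1, 2 and 7 to 12 or of cluster2 replicates 2 to 4 (largest exact permutation p 0.197, at -0.51 without cluster2 replicate 3), nor against bulk replicates 1 to 4 (exact permutation p = 0.413). Thinned to equal read pairs the groups did not overlap, with 10.03% ± 0.63 and 8.54% ± 0.18 (exact permutation p = 0.000162). On shared anchors, without thinning, it was 6.67% ± 0.54 and 9.57% ± 1.14, without overlap (exact permutation p = 0.00016). The share of loops moves with depth: over all anchors thinning took cluster2 replicate 1 from 10.8% to 8.70%. Bulk libraries kept few of their read pairs on shared anchors, so depth and group cannot be told apart there.

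**Figure D3:**
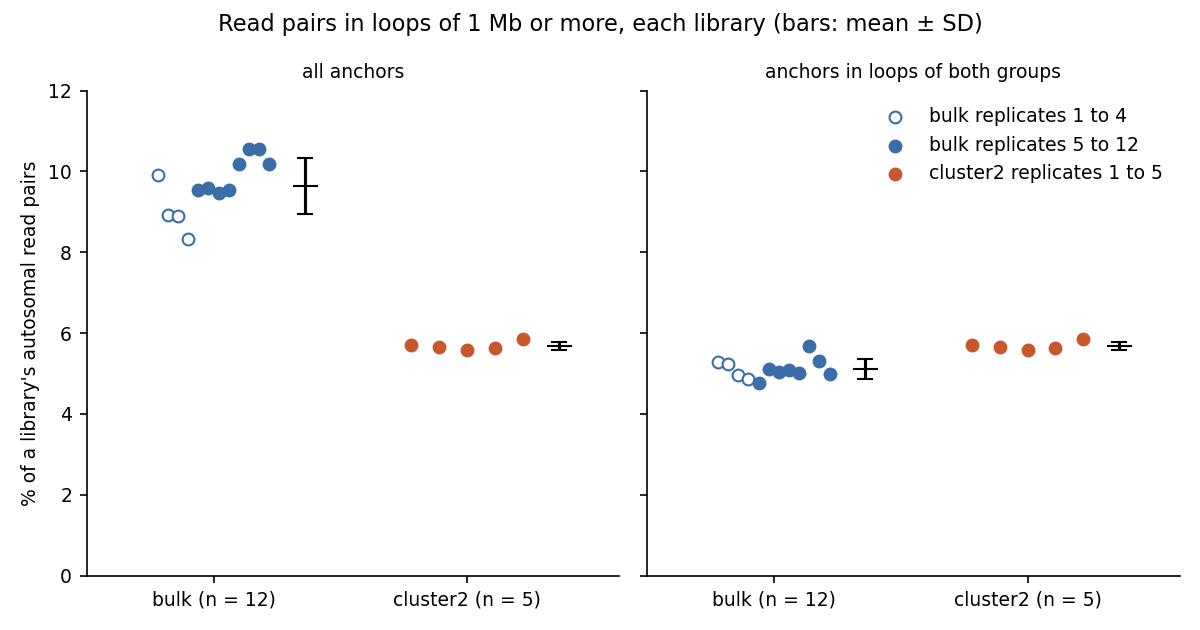
Percent of each library's autosomal read pairs that lay in loops of 1 Mb or more (vertical axis), over all anchors on the left and over anchors in loops of both groups on the right; points are libraries, open for bulk replicates 1 to 4, and bars give the mean ± SD. Bulk lies above cluster2 on the left (9.64% against 5.68%) and below it on the right (5.11% against 5.68%).

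Promoter to promoter contacts made up most of the long-range read pairs of cluster2 and few of those of bulk. Over all loops of this span, read pairs with promoters at both anchors were 9.86% ± 1.75 of the total in bulk (SD, n = 12) and 69.1% ± 0.57 in cluster2 (SD, n = 5), and those with none were 54.0% ± 4.28 and 3.73% ± 0.20. Those with a promoter at 1 anchor were 36.1% ± 2.55 and 27.2% ± 0.44. Each difference had the smallest exact permutation p, 0.000162, also after Benjamini-Hochberg adjustment over the 3 classes, and no class overlapped. With a TSS window of 2.5 kb in place of 5 kb the class with a promoter at 1 anchor no longer differed past the threshold (32.9% ± 3.15 and 31.3% ± 0.60, exact permutation p = 0.316), while the other 2 did. On the shared anchors the gap narrowed to 59.9% ± 3.70 against 69.1% ± 0.56 for promoters at both (adjusted exact permutation p = 0.00024) and to 6.64% ± 1.2 against 3.73% ± 0.20 for none (adjusted exact permutation p = 0.00024).

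The member with the most read pairs belonged to Nr2f1. It joined chr13:78337805-78343969, over exons and UTR of Nr2f1 and over A830082K12Rik and Gm8327, to chr13:79389889-79392568, 1.05 Mb away between genes, with no protein-coding TSS between the anchors. Bulk libraries held 0 to 7 of its 21 read pairs (median 1) and 10 of the 12 had at least 1, while all 5 cluster2 libraries held 0. Bulk replicate 2 alone gave 7 of the read pairs. The far anchor took part in bulk loops only, so the loop had no cluster2 read pairs by definition, and no fold change or test is given. Nr2f1 had 4 further members, of which 1 (chr13:76948456-76950885 to the Nr2f1 anchor, 2 bulk and 2 cluster2 read pairs, both of the latter in replicate 5) lay on its other side.

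Pou3f2 followed among the bulk members. Its anchor chr4:22414122-22418343 was joined to chr4:23909264-23914221, 1.5 Mb away and with no TSS between, by 16 bulk and 0 cluster2 read pairs. Bulk libraries held 0 to 5 (median 1), and 7 of the 12 had at least 1. The neighbouring anchor chr4:22420627-22426740, 5.1 kb from the gene's TSS, reached the same far anchor with 15 bulk and 0 cluster2 read pairs, and this second member shares its source with the first. This far anchor too was in bulk loops only. In all 10 members were linked through common anchors around Pou3f2, with 73 bulk and 2 cluster2 read pairs.

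Other members seen mostly in bulk lay on chromosomes 1, 10, 7 and 16. Chr1:41443805-41448703 and chr1:42769498-42773485, the latter 15.5 kb from Pou3f3, another neural POU factor gene, were joined by 12 bulk and 0 cluster2 read pairs, and both anchors took part in cluster2 loops. Its 12 read pairs met the minimum through bulk alone, and no test is given. The 10 linked members there held 57 bulk and 0 cluster2 read pairs. Nrp2, a semaphorin receptor gene of axon guidance, was joined to chr1:61432925-61436351 by 10 bulk read pairs, from a far anchor in bulk loops only, and its 8 linked members held 42 bulk and 1 cluster2. Marcks, which codes for an actin-binding substrate of protein kinase C, was joined across 1.42 Mb by 12 bulk and 1 cluster2 read pairs, the single cluster2 read pair in replicate 1. It too met the minimum through bulk alone. Nr2f2, the paralogue of Nr2f1, had 1 member with 7 bulk read pairs, 1 or 2 in each of 5 libraries, and both its anchors were in bulk loops only. A further member of 10 bulk read pairs on chromosome 16 (chr16:77125986-77129813 to chr16:78152575-78158071) touched no TSS, and its anchors too were in bulk loops only.

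Among the members with the most read pairs, 1 at Bcl6 and 1 in the histone cluster had equal raw numbers in both groups. Cluster2 gave 20.2% of all read pairs, so equal numbers are a higher rate in cluster2. Bcl6, a transcriptional repressor gene, reached chr16:25058089-25061123 with 8 bulk and 8 cluster2 read pairs in 11 libraries, the most libraries of any member. Cluster2 replicates 1 to 5 held 1, 1, 1, 1 and 4 and bulk libraries 0 to 2. The log2 fold change was 0.38 ± 0.72 (SE; edgeR adjusted p = 0.641), although with library size alone it was 1.78 (edgeR adjusted p = 0.0334), and both are descriptions, since the tested counts chose the member. A histone member joined Hist1h2ah, Hist1h2bk and Hist1h4i to Hist1h3d and Hist1h4d with 5 bulk and 5 cluster2 read pairs, and each cluster2 library held exactly 1.

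The members with the most cluster2 read pairs lay on chromosomes 13 and 4. Zfp184, a zinc finger gene at the edge of the histone cluster, was joined from chr13:22024769-22033596 to chr13:23527607-23531671, 11.9 kb from Abt1, by 11 read pairs. All came from cluster2, with 2, 2, 1, 0 and 6 in replicates 1 to 5, so it met the minimum through cluster2 alone and no test is given. In a crowded region of chromosome 4, 2 members of the same far anchor (chr4:146790206-146808888) held 2 bulk and 14 cluster2 and 1 bulk and 14 cluster2 read pairs. In the second, at Gm13212, cluster2 replicates 1 to 5 held 6, 5, 1, 1 and 1. Both met the minimum through cluster2 alone, and no test is given.

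Several cluster2 members joined promoters at both anchors. Dirc2 and Hspbap1 were joined to Eaf2 and Golgb1 by 7 cluster2 read pairs (4, 1, 1, 1 and 0), and Irgq to Bckdha and Exosc5 by 7 (1, 2, 1, 0 and 3). Bckdha and Exosc5 code for a subunit of the branched-chain keto acid dehydrogenase and of the RNA exosome. No bulk library held a read pair of either. Hsp90ab1, the constitutive HSP90 gene, was joined to Cul7, Klc4 and Mrpl2 by 6 cluster2 read pairs in 2 libraries. Rxrb, a retinoid X receptor gene, was joined to Apom and Bag6 in the major histocompatibility region by 1 bulk and 6 cluster2 read pairs. Single libraries decided some members: all 5 read pairs of Rpl3 to Tob2 came from cluster2 replicate 2, as did all 4 cluster2 read pairs of the member that reached Hoxa3 and Hoxa4 (3 in bulk). Mll3, a histone H3K4 methyltransferase gene, had 2 bulk and 8 cluster2 read pairs, of which cluster2 replicates 4 and 5 held 4 and 3.

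**Figure D4:**
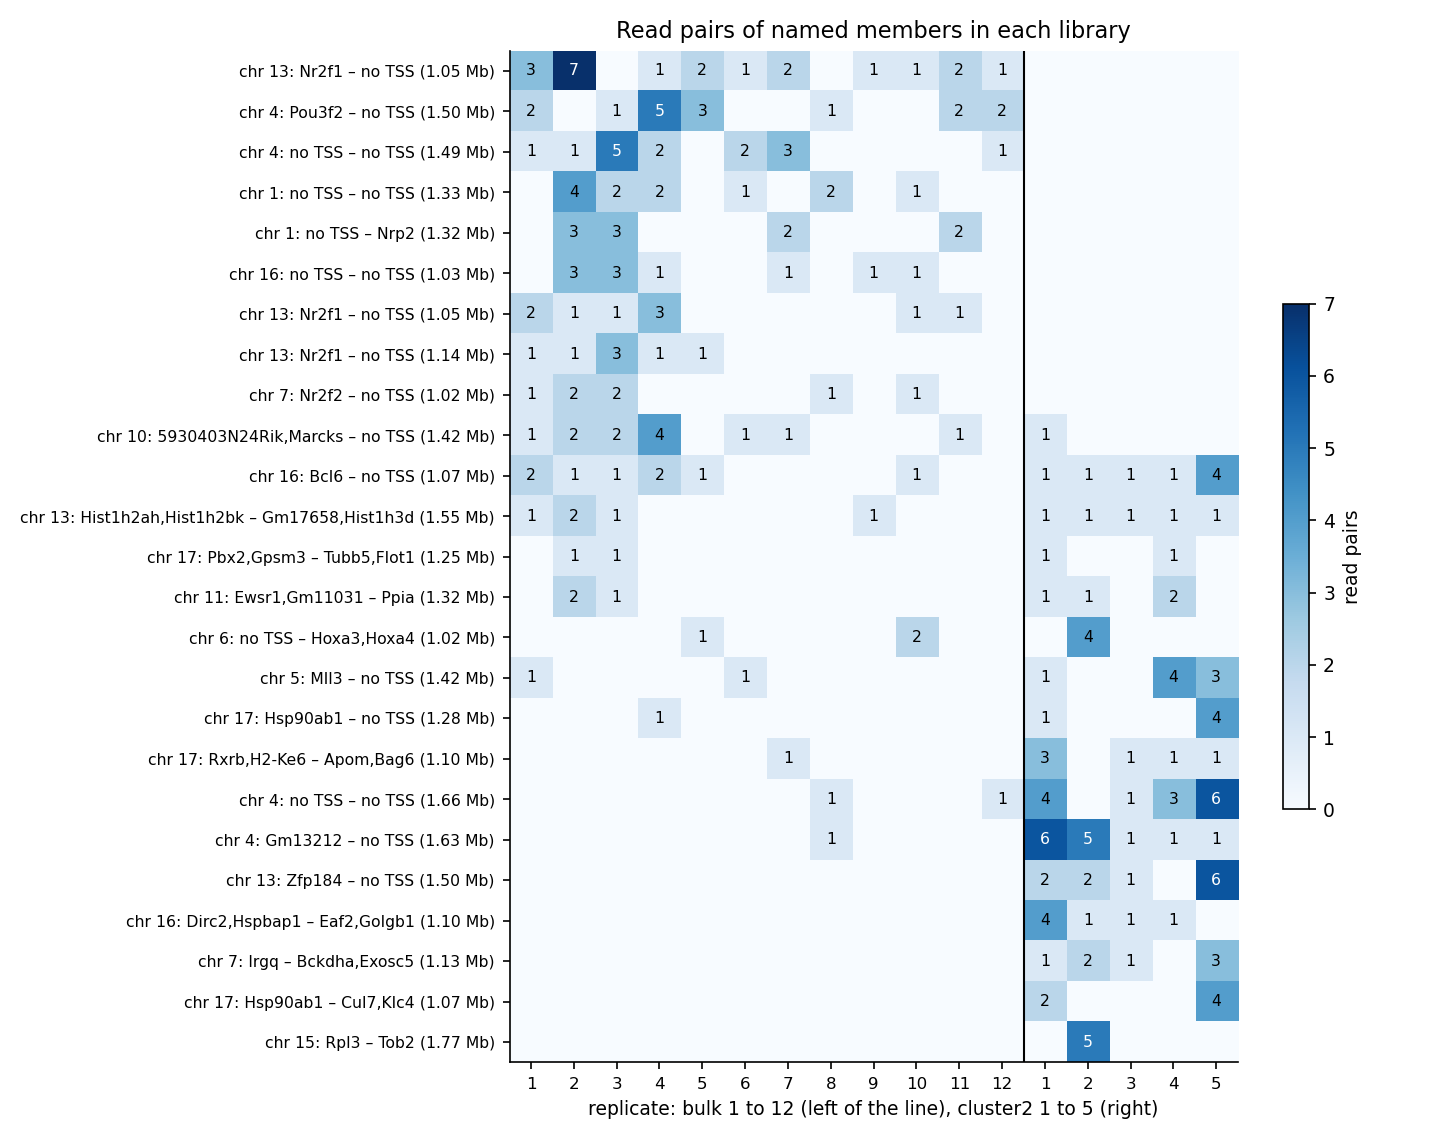
Read pairs of 25 named members (rows, by chromosome, genes within 5 kb of each anchor and span) in each library (columns, bulk replicates 1 to 12 left of the line and cluster2 replicates 1 to 5 right of it); colour and number give the read pairs, and blank cells are 0. The Nr2f1 and Pou3f2 members at the top have up to 7 and 5 read pairs per bulk library and 0 in all cluster2 libraries, and those from Zfp184 down have 0 in all bulk libraries.

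Tested one by one, the number of members that passed depended on the normalization. With edgeR and TMM, 179 of the 653 members were higher in cluster2 (27.4%) and 71 lower (10.9%), where 20.9% and 29.1% of all 72043 loops with 4 or more read pairs were. All 165 cluster2 members are among the 179, and 70 of the 71 lower were among the 162 bulk members. These calls rest on the counts that chose the members, so they describe them and support nothing. With library size alone, 319 were higher and 4 lower, against 37.9% and 3.11% of all loops. On shared anchors with their own read pairs as library size, 1 was higher and 43 lower of 530, against 4.18% and 8.34%, and DESeq2 called 2 higher and 4 lower, against 6.09% and 3.34%, with 641 members given no adjusted p. Leaving out 1 library moved the number lower under TMM to 8 without cluster2 replicate 1, 14 without replicate 5, 24 without replicate 2, 3 or 4, 39 without bulk replicate 2 and 115 to 151 without any other bulk library. In that order these were 1.23%, 2.14%, 3.68%, 5.97% and 17.6% to 23.1% of members. The share lower over all loops moved too, to 5.95%, 10.1%, 13.5% to 13.7%, 21.6% and 38.2% to 45.4%. TMM gave 9 of the 12 bulk libraries the same effective size of 91572 read pairs, so it scaled most bulk libraries by a constant and not by their depth.

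At the genes that members touched, read pairs of all spans were counted, which gives more depth. These totals, here and below, include the read pairs of the members that chose the genes. At the Marcks anchor members gave 35 of the 418 bulk read pairs. Tests of single genes at members are therefore descriptions. TSS of 887 genes lay at member anchors, 885 of them tested. With edgeR and TMM, 331 were higher in cluster2 and 224 lower, where 20.6% and 42.8% of all 14115 genes were, and with library size alone 690 and 73, against 55.3% and 26.2%. Marcks was lower in cluster2, at a log2 fold change of -6.52 ± 0.39 (SE; edgeR adjusted p = 1.8e-15), with 166 to 404 CPM in bulk and 0 to 23.3 in cluster2, and -4.39 on shared anchors. Of the 851 genes at members tested on shared anchors 183 were higher and 128 lower (21.5% and 15.0%), where 20.1% and 11.7% of all 9845 genes tested there were. The 885 genes had a median of 11.4% of their read pairs in loops of 1 Mb or more (quartiles 7.78% and 16.98%), against 7.32% over all genes, and having such loops is what chose them. Single genes ran from 44.4% at Nrp2, 39.3% at Hist1h2ah and 27.3% at Marcks to 5.48% at Krt18, 3.75% at Pbx2 and 2.36% at Rpl18.

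Members at listed genes are given next, for lists chosen with earlier results of these data known. Neural transcription factors at members were Nr2f1, Nr2f2, Pou3f2, Pou3f3 and Sox11, a SoxC factor gene. Their 13 members held 94 bulk and 2 cluster2 read pairs, and read pairs of 4 of these genes were lower in cluster2. Nr2f1, Pou3f3, Pou3f2 and Sox11 had log2 fold changes of -4.26, -4.33, -5.15 and -5.71 (edgeR adjusted p 3.7e-10 or smaller), and -3.94, -4.11, -5.26 and -4.81 on shared anchors. Nr2f2 had 129 ± 56.9 CPM in bulk (SD, n = 12), all of it at anchors in bulk loops only, so its 0 in every cluster2 library follows from how those anchors are defined. The counts of lower genes below can include genes of this kind, except on shared anchors. Of the 58 genes of this list that were tested, 1 was higher and 49 lower (1.72% and 84.5%, against 20.6% and 42.8% of all genes; median log2 fold change -2.62, against -0.52). With library size alone 5 and 27 were (8.62% and 46.6%, against 55.3% and 26.2%), and on shared anchors 1 and 20 of 32 (3.12% and 62.5%, against 20.1% and 11.7% of all genes there). Retinoid pathway genes, 10 of them at 17 members, were mixed, with 88 bulk and 25 cluster2 read pairs. Among them, Nr2f1, Meis1 and Meis2 were lower and Rxrb higher in cluster2 (1.67 ± 0.20, SE; edgeR adjusted p = 9.3e-09). Rxrb had 0.71 on shared anchors and 3.42 with library size alone, and Meis2 went from -3.01 to -1.20 and -1.23, all past the threshold. In contrast, Cyp26b1, an RA hydroxylase gene, Rara, an RA receptor gene, Rdh10, a retinol dehydrogenase gene, and Pbx2 had -0.19, 0.15, -0.40 and 0.10 without passing. These 4 were higher with library size alone (1.58, 1.94, 1.36 and 1.87). On shared anchors Pbx2 was lower (-0.85, edgeR adjusted p = 0.00045) and Rdh10 higher (1.09, edgeR adjusted p = 0.029), and Cyp26b1 and Rara had -0.12 and -0.07 without passing. Meis1 was no longer lower with library size alone (-0.11, edgeR adjusted p = 0.717). Of the 29 tested, 6 were higher and 15 lower (20.7% and 51.7%, against 20.6% and 42.8% of all genes; median -0.95). With library size alone 13 and 9 were (44.8% and 31.0%), and on shared anchors 9 and 6 of 20 (45% and 30%, against 20.1% and 11.7%; median 0.32).

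Hox genes, which RA induces in order along the cluster, were at 5 members with 20 bulk and 5 cluster2 read pairs. Hoxd3 was lower in cluster2 (-3.66 ± 0.24, SE; edgeR adjusted p = 1.0e-14), and Hoxa4 was lower with TMM (-1.21 ± 0.25, SE; edgeR adjusted p = 0.0001). With library size alone Hoxa4 had 0.56 without passing (edgeR adjusted p = 0.05002), and on shared anchors it was lower (-2.09, edgeR adjusted p = 4.5e-20). Of 39 tested, 3 were higher and 28 lower (7.69% and 71.8%, against 20.6% and 42.8% of all genes; median -2.06), 12 and 17 with library size alone (30.8% and 43.6%, against 55.3% and 26.2%), and 1 and 25 of 34 on shared anchors (2.94% and 73.5%). Endoderm genes at members were Krt18 and Krt19, keratins of simple epithelia, and Gata6, at 3 members with 1 bulk and 12 cluster2 read pairs. Krt18 had 53.4 ± 24.1 CPM in bulk (SD, n = 12) and 1470 ± 241 in cluster2 (SD, n = 5). With TMM its log2 fold change was 2.96 ± 0.21 (SE; edgeR adjusted p = 1.3e-13), and that of Krt19 was 1.16 ± 0.32 (SE). With library size alone, by which CPM are scaled, they were 4.73 and 2.91. Of 35 tested, 15 were higher and 8 lower (42.9% and 22.9%; median 0.65), 26 and 7 with library size alone (74.3% and 20%), and 19 and 1 of 29 on shared anchors (65.5% and 3.45%). Housekeeping genes were at 9 members with 8 bulk and 37 cluster2 read pairs, and of 29 tested 12 were higher and 5 lower (41.4% and 17.2%; median 0.34), 26 and 1 with library size alone (89.7% and 3.45%), and 3 and 4 of 29 on shared anchors (10.3% and 13.8%, against 20.1% and 11.7% of all genes there). Rpl18, a ribosomal protein gene, had the highest value of those at members (2.44 ± 0.19, SE; edgeR adjusted p = 6.5e-13), and had 1.58 on shared anchors. Of the pluripotency genes only Sall4 lay at a member (2 bulk and 2 cluster2 read pairs), and of 11 tested 3 were higher and 7 lower (27.3% and 63.6%; median -2.04), 3 and 4 with library size alone (27.3% and 36.4%), and 2 and 2 of 8 on shared anchors (25% each). The single member that joined genes of the lists at both anchors was Pbx2 to Tubb5, with 2 and 2.

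Members were unevenly placed along the genome. Chromosome 13 held 99 of the 653 (15.2%), against 4.86% of all loops of 1 Mb or more. Chromosome 19 held 6.43% against 2.96%, and chromosome 9 1.68% against 4.12%. The cluster2 share of the members' read pairs was lowest on chromosome 12 (14.0%) and chromosome 1 (28.1%) and highest on chromosome 17 (76.4%). Linking members through common anchors gave 328 groups, of which 237 were single members, so members of a group share sequence and are not independent.

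The largest group was the main histone gene cluster. The region chr13:21806161-23856573, with Hist1 genes, Zfp184, Abt1, Hfe and Btn1a1, held 62 members with 120 bulk and 231 cluster2 read pairs, and 15.0% of its 413 loops of this span were members. Its members had 69.5 ± 28.6 CPM in bulk (SD, n = 12; 23.1 to 108.3) and 566 ± 96.1 in cluster2 (SD, n = 5; 470.3 to 693). Of these members 60 lay on shared anchors, and the region's cluster2 share of 65.8% was no higher than the 67.3% of all autosomal loops on such anchors. An anchor at Hist1h2ah, Hist1h2bk and Hist1h4i (chr13:22125878-22128908) took part in 11 members, as did its neighbour chr13:22131688-22136749. At Hist1h2ah itself read pairs of all spans were higher in cluster2 (1.18 ± 0.21, SE; edgeR adjusted p = 9.8e-06), and on shared anchors the value was 0.07 without passing.

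Other groups differed in their balance. A gene-dense group of 29 members between 5487116 and 10972625 of chromosome 19, with Fth1, Ahnak, Fads2, Fen1 and Ddb1, held 53 bulk and 78 cluster2 read pairs. The region chr4:144996810-147195922, whose annotated TSS at members carry only Gm names, held 21 members with 48 bulk and 85 cluster2 read pairs, and 12 of these members shared a 32-base word between their anchors. Groups around Sox11 and Rps7 (36 bulk and 4 cluster2 read pairs), Nr2f1 (60 and 2), Marcks (41 and 1) and Id2 (20 and 0), a helix-loop-helix inhibitor gene, came mostly from bulk. Without the histone region the members' cluster2 share was 51.4%, and without the chromosome 4 region 52.5%.

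**Figure D5:**
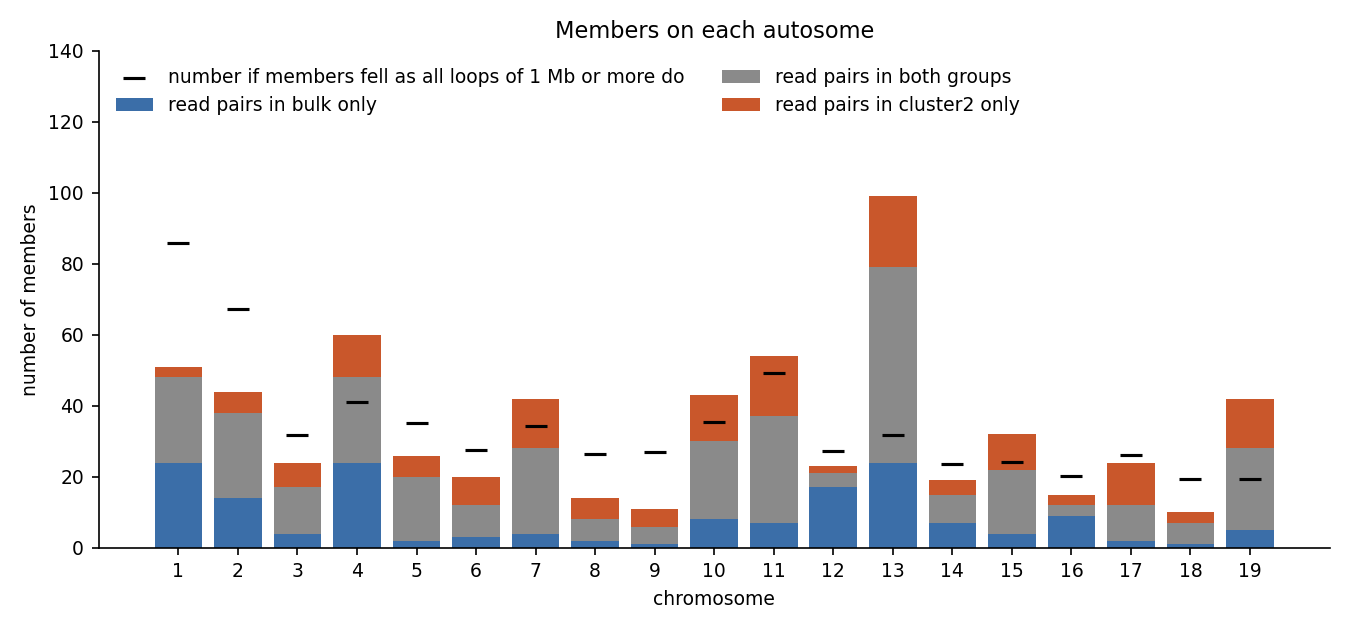
Number of members on each autosome (vertical axis), stacked by the libraries that showed them; black dashes mark the number each chromosome would hold if the 653 members fell as all loops of 1 Mb or more do. Chromosome 13, with 99 members, and chromosome 19, with 42, rise above their dashes, and chromosomes 1 and 2 lie below theirs.

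Chromosome shares were also tested over all loops of this span. With all anchors 18 of the 19 autosomes differed between the groups, all but chromosome 5, and chromosome 1 took 15.0% ± 1.64 of the long-range read pairs in bulk (SD, n = 12) and 3.19% ± 0.29 in cluster2 (SD, n = 5; adjusted exact permutation p = 0.00022). On the shared anchors 3 did. Chromosome 1 took 7.58% ± 1.34 in bulk and 3.19% ± 0.29 in cluster2 (adjusted exact permutation p = 0.0031), chromosome 2 10.2% ± 1.70 and 7.14% ± 0.58 (0.017), and chromosome 8 3.39% ± 0.82 and 4.66% ± 0.30 (0.033).

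The anchors of members were close in make-up to those of loops just under the minimum. Member anchors had a median width of 3710 bp, 50.1% GC and 29.4 CpG per kb. Anchors of loops of this span with 3 read pairs had 3427 bp, 49.8% and 27.1, and all autosomal anchors 2329 bp, 43.9% and 9.06. Among the members, anchors of bulk members had 13.6 CpG per kb and those of cluster2 members 31.4. A CTCF core motif, searched on both strands, lay in 7.79% of member anchors, 6.67% of those with 3 read pairs and 3.59% of all. It was more frequent in anchors of bulk members (13.2%) than of cluster2 members (4.33%). Among anchors of 3 to 5 kb the shares were 15.0% and 4.35%, against 4.83% of all autosomal anchors of that width. In anchors of members on shared anchors it was 6.15%. All 4 members with the motif at both anchors came from bulk. Only 1 of the 4 lay on shared anchors, and off these anchors members had bulk read pairs only by definition. The 4 were 0.613% of the members, against 0.608% of the loops under 1 Mb with 4 or more read pairs and 0.327% of all autosomal loops. These shares are descriptions, and a match is not a bound site.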

How the data were processed

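H3K27ac HiChIP was analysed in 12 bulk and 5 cluster2 libraries. In the authors' processing, HiC-Pro mapped the reads on mm9 and hichipper called peaks and loops, and the deposited values are counts of read pairs joining 2 anchors, without normalization. All 76 pairs of replicates differed beyond sampling noise (largest chi-square p 4.7e-09).

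Overlapping anchors were joined into 216081, and 700 read pairs inside a joined anchor were dropped. Genes were those with a protein-coding TSS of the GENCODE annotation on mm9 within 5 kb of an anchor. Loops with 4 or more read pairs, and genes with 20 or more read pairs that 5 or more libraries had listed, were tested with edgeR 4.0.16 in R 4.3.3 (TMM, quasi-likelihood test, Benjamini-Hochberg over all loops or genes, adjusted p under 0.05). CPM and log2 fold changes were computed from the deposited counts. CPM used library size alone and log2 fold changes TMM unless stated, so they need not match. DESeq2 1.42.0 (poscounts), library size alone and TMMwsp were alternatives. Library shares were compared by exact two-sided permutation tests (Python 3.11.15, scipy 1.17.1). On simulated data the fit by gene recovered the changed genes, while the fit by loop missed most changed loops.

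The members, the 6 gene lists and the tests were chosen with earlier results of these data known. Named members are the 12 with the most read pairs, the 4 of smallest p in either direction (none sharing an anchor with one already taken), those joining listed genes at both anchors, up to 12 with a listed gene on 1 side, and the loops nearest the limits. Members called by all 4 normalizations, those found by the motif and shared sequence searches, and further members of named genes were picked after their values were seen. Chromosome X (283 loops of this span, 1 with 4 or more read pairs) was left out, and 1 gene is not reported here. Sequences were read from the mm9 genome, and motifs were searched on both strands.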

Additional observations from a re-analysis of the deposited data

Results flagged for a closer look

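In 66 measures of the 5 cluster2 libraries the highest or lowest library was compared with the rest, and 6 stood apart by Dixon's test at the 95% level, where chance gives about 1 in 20. Chromosome 11 took 11.9% of the long-range read pairs in cluster2 replicate 4, against 13.2% to 13.5% in the others. Chromosome 17 took 8.19% in replicate 3 (6.52% to 6.94% in the others), and chromosome 19 took 5.91% in replicate 5 (6.76% to 7.05%). Read pairs at Aldoa, a glycolytic gene, were 1683 CPM in replicate 4 (1439 to 1509 in the others). Hoxa3 had 772 CPM in replicate 4 (1286 to 1470), and Hoxd3 had 314 CPM in replicate 3 (178 to 209).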

How the results depend on the processing

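Differences are cluster2 minus bulk. On shared anchors the share of read pairs at 1 Mb or more turned to 0.574 percentage points. The share of loops, there at unequal depth, turned to 2.90, and 3 of the 19 chromosomes differed in place of 18. The share of loops was -0.519 against bulk replicates 1 to 4 (exact permutation p = 0.413), and the share with a promoter at 1 anchor was -1.61 with a TSS window of 2.5 kb (exact permutation p = 0.316). Hoxa4 turned to 0.56 with library size alone, without passing. Leaving out each library in turn gave -4.07 to -3.87 for the share of read pairs, -1.11 to -0.508 for the share of loops (largest exact permutation p 0.197), 631 to 5405 bp for the median span, and 59.0 to 59.5, -9.16 to -8.55 and -50.9 to -49.8 for promoters at both, 1 and no anchors. It gave 18 chromosomes throughout. Members higher were 129 to 197 and lower 8 to 151, where 15.7% to 21.8% and 5.95% to 45.4% of all loops were. Genes higher were 296 to 335 and lower 214 to 231, where 18.3% to 21.3% and 41.2% to 43.0% of all genes were.

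Members higher and lower are given with the number tested, and the shares of all loops tested are in brackets. With library size alone 319 and 4 of 653 were (37.9% and 3.11%), and with DESeq2 2 and 4 of 653 (6.09% and 3.34%). The numbers were 4 and 8 of 17 with at least 10 read pairs (40.8% and 27.7%). They were 0 and 1 of 1 with at least 20 in 5 libraries (38.1% and 22.4%). With no filter they were 8 and 0 of 653 (0.228% and 0.00363%). After thinning they were 63 and 4 of 113 (42.7% and 12.3%), and in 25 kb bins 321 and 103 of 2485 (9.24% and 16.9%). On shared anchors they were 179 and 21 of 530 (39.1% and 3.78%). With the read pairs of shared anchors as library size they were 1 and 43 of 530 (4.18% and 8.34%). Of 653 members they were 13 and 4 against bulk replicates 5 to 12 (11.2% and 5.24%) and 2 and 13 against bulk replicates 1 to 4 (2.69% and 5.76%). For replicates 1 to 5 without pairing they were 3 and 16 (4.12% and 7.06%). These 3 alternatives, and the library size taken from shared anchors, were chosen after seeing the data. Genes at members were 690 higher and 73 lower with library size alone (55.3% and 26.2% of all genes). On shared anchors they were 183 and 128 (20.1% and 11.7%). The rule would give 2101 members at 3 read pairs, 144 at 6 and 2485 in 25 kb bins. The cause of these changes was not tested.

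Replicate numbers did not pair the libraries (correlations of -0.0109 to 0.0107 over 14115 genes). With the replicate block the share of read pairs was -3.43 and of loops -0.528, and the promoter classes were 57.8, -11.2 and -46.5, where exact sign-flip p can be no smaller than 0.0625. The block left 0 chromosomes and 0 members higher and 2 lower, where 1.41% and 2.17% of all loops were. It left 284 genes higher and 231 lower, where 18.3% and 41.2% of all genes were.

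Few read pairs limit all of this. Most members had 4, the 5 cluster2 libraries and the sort share 1 label, and loops off the shared anchors cannot be compared between the groups.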
